A study of Polyandrocarpa zorritensis and Clavelina lepadiformis with 36 samples.

Results

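The budding nest of the ascidian *Polyandrocarpa zorritensis* was compared with the whole zooid, its feeding adult body, transcript by transcript. Of 27938 assembled transcripts, 17585 reached 5 in whichever tissue had the higher mean, and these were counted. Their change was log2((budding nest + 1)/(zooid + 1)). The series holds RNA of 36 samples from *P. zorritensis* and a second ascidian, *Clavelina lepadiformis*, in 5 life stages each. The budding nest and the zooid had 3 replicates each, and every replicate pooled tissue of at least 3 specimens. Both tissues came from untreated, wild-derived animals that had germinated in the laboratory from spherules of the same field-collected rope. No allele or agent was part of the design, and the genotypes of the animals are not given. The stolons had the same origin and the germinating spherules were likewise cultured, while the dormant spherules were frozen directly from the field. The germinating mean pools 6 samples kept at either of 2 temperatures. All *C. lepadiformis* tissue came from 1 laboratory colony.

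A budding nest forms where the blood vessels inside a stolon branch into a cluster of small chambers. These ampullae are lined by vascular epidermis, hold circulating blood cells (hemocytes) and lie in the tunic, the extracellular coat of ascidians. In vasal budding the vessel wall folds inwards within the nest and a new zooid grows from the vesicle. The nest was sampled before a bud had formed, and it can also turn into a dormant spherule. The zooid has body wall and siphon muscle, a ciliated pharynx with an endostyle, a gut and a nervous system. In bulk tissue, fewer cells of a type and less RNA per cell cannot be told apart.

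The values are the authors' stage means of TPM (transcript abundance corrected for length and library size), scaled between libraries by trimmed mean of M values (TMM) factors. Being per length, levels of different transcripts can be compared. Each stage has 1 mean, so no replicate spread, error or test could be computed here for any difference below, and the depth of each sample is unknown. "Higher" and "lower" therefore mean past 2-fold on the scale of the mean + 1 unless a value is given, and this scale understates the change of weakly expressed transcripts. A transcript listed at 0 gets no fold. Names are those of the best human protein match in the sheet of ortholog pairs. Where the *P. zorritensis* transcript had no entry, the name of its *C. lepadiformis* partner was used. The sheet holds only pairs that the authors had called in some stage of both species, so named transcripts are a selected set. Several transcripts can carry 1 name, and close copies cannot always be told apart in a de novo assembly.

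More transcripts were lower in the budding nest than were higher. At least 2-fold higher were 2591 transcripts, 14.7% of those counted, and at least 2-fold lower were 3833, or 21.8%. The asymmetry grew with the size of the change, since 305 transcripts were at least 8-fold higher and 1337 at least 8-fold lower. The median change was -0.05, and 11161 transcripts stayed within 2-fold. The values of the nest summed to 929263 and those of the zooid to 687867. Scaling both stages to the same sum shifts log2 changes by up to -0.43, so that 23.5% of the transcripts past 2-fold were higher, in place of 40.3% as deposited. Of the 177 transcripts named by rule, 72 were higher as deposited and 44 of these also with equal sums, while all 96 lower ones stayed past 2-fold. Those that dropped below it are the named rises of 1.42 or less on the log2 scale.

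On the deposited scale, the strongly expressed part of the transcriptome went the other way. Shares by level were not computed with equal sums, where 1535 transcripts in all were higher in place of 2591. Of the 575 transcripts with a higher mean over 200, 41.9% were higher in the nest and 16.3% lower. Of the 6449 with a higher mean between 5 and 10, 9.51% were higher and 26.6% lower. The 2591 higher transcripts made up 52.5% of the summed values of the nest and 21.6% of those of the zooid. The 3833 lower transcripts made up 1.67% of the nest and 22.9% of the zooid. The 2-fold selection itself fixes the direction of both differences. Of the lower transcripts, 1913 had a nest mean under 1 and 704 of these were listed at 0, whereas 279 of the higher transcripts had a zooid mean under 1.

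Most transcripts with the largest changes had no human name, like most transcripts counted. Of the 100 transcripts with the largest rise, 3 had a human name, and of the 100 with the largest fall, 21 did. Among all transcripts counted, 16.2% did. The most abundant transcript of the nest, TRINITY_DN72119_c0_g1_i2, is unnamed and had 24457 in the nest and 113 in the zooid, which is 2.63% of the nest's summed values. The unnamed TRINITY_DN6341_c0_g1_i8 showed the largest rise, with 1495 in the nest and 1.07 in the zooid. The largest fall was also unnamed, TRINITY_DN1259_c0_g2_i1, with 0.522 in the nest and 3434 in the zooid. Human names were carried by 2843 counted transcripts, of which 230 were higher in the nest (8.09%) and 580 lower (20.4%). These shares and their median change of 0.00 are what the gene lists below are set beside.

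**Figure D1:**
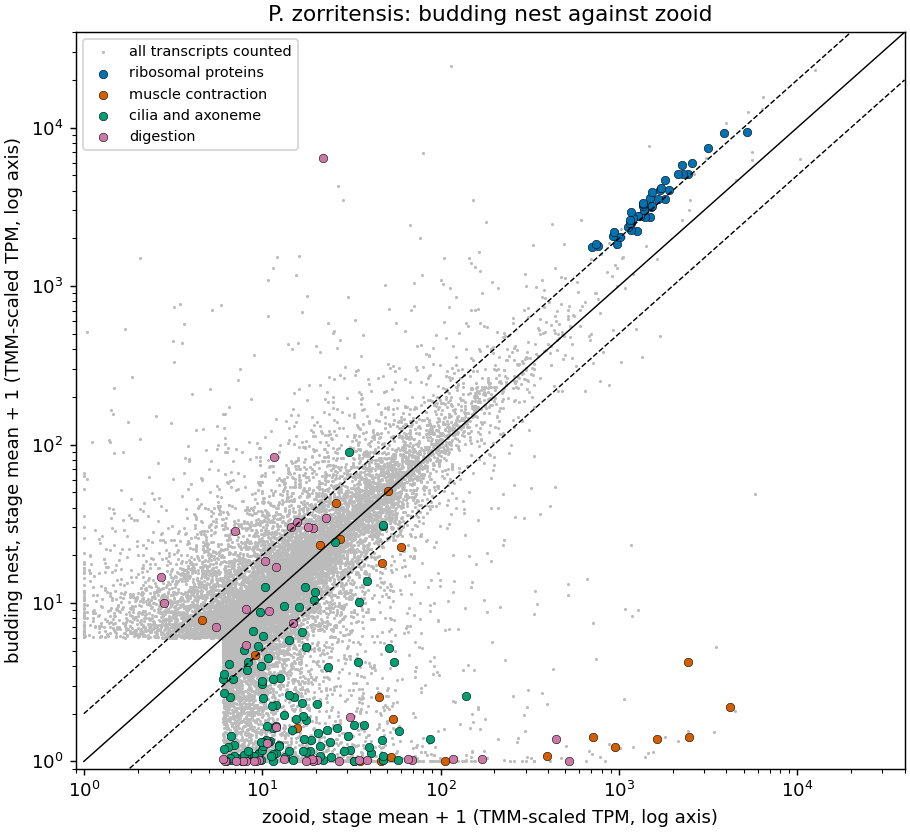
Each point is 1 of 17585 transcripts, with the zooid mean + 1 on the horizontal and the budding nest mean + 1 on the vertical log axis (TMM-scaled TPM). The solid line marks equal values and the dashed lines 2-fold, and the cut corner at low values is the filter at 5. Ribosomal proteins (blue) lie along the upper 2-fold line, while most muscle (orange), cilia (green) and digestion (pink) transcripts lie near the floor of the nest axis, apart from AMYP at 6387 in the nest.

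Among named transcripts, the largest rise was that of AMYP, the match of pancreatic alpha-amylase, which splits starch and glycogen. AMYP had 6387 in the nest and 21.1 in the zooid, a change of 8.18 on the log2 scale. It was therefore among the 5 named transcripts with the highest nest mean, beside ribosomal proteins. CD109, a cell surface protein of the alpha-2-macroglobulin and complement family, had 1094 in the nest and 9.85 in the zooid (6.66). GALM, an enzyme that interconverts the anomers of galactose and glucose, had 586 in the nest and 22.3 in the zooid (4.65).

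The other named transcripts with large rises included several enzymes. FTCD, an enzyme of histidine and folate metabolism, had 68.0 in the nest and 4.63 in the zooid (3.62). The cytochrome P450 CP2C9 had 111 in the nest and 9.38 in the zooid (3.43), and the heme-binding protein HEBP2 had 1399 in the nest and 148 in the zooid (3.24). Among regulators, RUNX1, a factor of blood cell development in vertebrates, had 51.5 in the nest and 2.84 in the zooid (3.77). The basement membrane chain LAMB2 had 106 in the nest and 13.2 in the zooid (2.91), and D19L1, a predicted mannosyltransferase, had 79.4 in the nest and 9.78 in the zooid (2.90). The lipase-related LIPR1 had 82.9 in the nest and 10.7 in the zooid (2.84), and the secreted fibrinogen-like FGL1 had 18.0 in the nest and 2.38 in the zooid (2.49). KLH13, an adaptor of a ubiquitin ligase, had 29.2 in the nest and 4.45 in the zooid (2.47). These 15 transcripts, with NKX23 and VIME described below, changed by 2.44 to 8.18 on the log2 scale.

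The 15 named transcripts with the largest falls belonged mostly to contractile tissue and gut. They had nest means of 0 to 3.42 and zooid means of 137 to 4224, and 12 of them were under 1 in the nest. ACTS, the match of skeletal muscle actin, was among the 5 most abundant named transcripts of the zooid, with 1.21 in the nest and 4224 in the zooid (-10.90). The others of the 15 appear with their lists, except KCRB, a creatine kinase that buffers cellular energy, and ANX13, an annexin of epithelial membranes. KCRB was listed at 0 in the nest against 166 in the zooid, and ANX13 at 0 in the nest against 137 in the zooid.

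Contractile genes showed the lowest median of the lists. Muscle shortens when myosin pulls on actin filaments, and troponin or calponin on the filament gates this in a calcium-dependent way. Of 24 muscle transcripts counted, 18 were lower in the nest and 0 were higher, with a median of -4.95. Their values summed to 196 in the nest and 13460 in the zooid. The filament regulator CNN1 (calponin) had 0.434 in the nest and 2474 in the zooid (-10.75). The calcium sensor TNNC2 (troponin C) had 0.378 in the nest and 1640 in the zooid (-10.22), and its inhibitory partner TNNI1 had 0.229 in the nest and 949 in the zooid (-9.59). Both myosin chains were lower, with 3.22 for MYL5 in the nest against 2438 in the zooid (-9.17) and 0.088 for MYH1 in the nest against 397 in the zooid (-8.51). A further troponin C, TNNC1, had 0.433 in the nest and 714 in the zooid (-8.96).

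The 6 muscle members within 2-fold included 2 actin cross-linkers. ACTN2 and FLNC had 49.9 and 41.9 in the nest against 49.6 and 24.8 in the zooid. A separate list of 64 transcripts of actin dynamics and cell migration had 6 lower, 0 higher and a median of -0.04. RAC1, a small GTPase of the cell edge, had 93.1 in the nest and 93.6 in the zooid. The largest fall in this list was MYL6, a myosin light chain, with 22.0 in the nest and 1170 in the zooid (-5.67). The non-muscle myosin MYH10, which drives contraction in cells other than muscle, had 142 in the nest and 77.4 in the zooid (0.87).

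Motile cilia carry an axoneme of doublet microtubules with dynein arms and radial spokes, and in the zooid they move water through the pharynx. Of 120 cilia and axoneme transcripts counted, 101 were lower in the nest and 1 was higher, with a median of -2.90. Their median level was 0.478 in the nest and 11.6 in the zooid, and 74 were under 1 in the nest. TPPP2, a tubulin-binding protein, had 1.59 in the nest and 137 in the zooid (-5.74), and CROCC, which forms the ciliary rootlet, had 0.027 in the nest and 46.8 in the zooid (-5.54).

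The 18 cilia members within 2-fold included CBY1 of the basal body, although several transport proteins and other proteins of the ciliary base were lower. CBY1 had 30.3 in the nest and 46.3 in the zooid. KAP3, also within 2-fold, had 23.2 in the nest and 24.6 in the zooid. Its human entry name is that of a regulatory subunit of protein kinase A and not of a transport protein. The intraflagellar transport proteins IFT43 (-2.85), IFT46 (-1.73), IFT56 (-1.71), IFT57 (-1.28) and IF122 (-1.19) were lower, as were FTM (-1.06) and TM216 (-1.35) of the transition zone. These examples were chosen after their values were seen. Positive changes were found for the dynein assembly factor DAAF3, with 11.6 in the nest and 9.39 in the zooid (0.28), and past 2-fold for MKS3, a transition zone protein, with 88.8 in the nest and 29.8 in the zooid (1.54).

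Digestive enzymes and absorptive proteins of the gut were split. Of 43 transcripts counted, 26 were lower in the nest and 7 higher, with a median of -2.86, and 11 were listed at 0 in the nest. Many proteases of the gut were lower, but not all. CTRL, a chymotrypsin-like protease, had 0.028 in the nest and 170 in the zooid (-7.38), and CBPA2, a pancreatic-type carboxypeptidase, had 0.041 in the nest and 117 in the zooid (-6.82). In contrast, the elastase name CEL2A was carried by 2 transcripts within 2-fold, with 17.3 and 6.48 in the nest against 9.32 and 13.8 in the zooid (0.83 and -0.99). The chymotrypsin-type CTRB1 had 8.11 in the nest and 7.15 in the zooid (0.16). The intestinal disaccharidase MGA had 0.024 in the nest and 68.0 in the zooid (-6.07). Of the lipid-binding proteins, FABP4 had 0.378 in the nest and 443 in the zooid (-8.33), and FABP6, which binds bile acids in the vertebrate ileum, was listed at 0 in the nest against 526 in the zooid.

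Of the 7 higher members of the digestion list 1 was a protease, ENTK, the enteropeptidase that activates trypsinogen, with 29.1 in the nest and 13.6 in the zooid (1.05). ENTK, CEL2A and CTRB1 were picked after their values were seen. Beside AMYP and LIPR1 the higher members included the bile acid transporter NTCP2, with 13.6 in the nest and 1.72 in the zooid (2.42), and MALR1, a low-density lipoprotein receptor class A protein, with 27.5 in the nest and 6.07 in the zooid (2.01). With equal sums for both stages 5 members of the list were higher. The list summed to 6741 in the nest, of which AMYP gave 6387, and to 1871 in the zooid. A second LIPR1 transcript was listed at 0 in the nest against 7.14 in the zooid. Of the 3 counted transcripts of iodination and endostyle type, 3 were lower, among them the iodothyronine deiodinase IOD1 with 29.9 in the nest and 70.9 in the zooid (-1.22) and the peroxide-forming oxidase DUOX1 with 0.127 in the nest and 5.74 in the zooid (-2.58).

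Neural transcripts were lower less uniformly. Of 38 counted, 13 were lower in the nest and 2 higher, with a median of -0.61, which turned to 0.25 among those with a higher mean of at least 20. SYT1, the calcium sensor of transmitter release, had 0.049 in the nest and 23.9 in the zooid (-4.57). The axonal adhesion protein CNTN2 had 0.003 in the nest and 16.3 in the zooid (-4.11), and SC6A7, a proline transporter of brain, had 4.30 in the nest and 75.1 in the zooid (-3.84). Against this, VISL1, a neuronal calcium sensor, had 97.6 in the nest and 22.3 in the zooid (2.08). CNTP2, of the neurexin family, had a transcript with 65.3 in the nest and 14.1 in the zooid (2.13), and another with 0.404 in the nest and 14.5 in the zooid (-3.46).

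**Figure D2:**
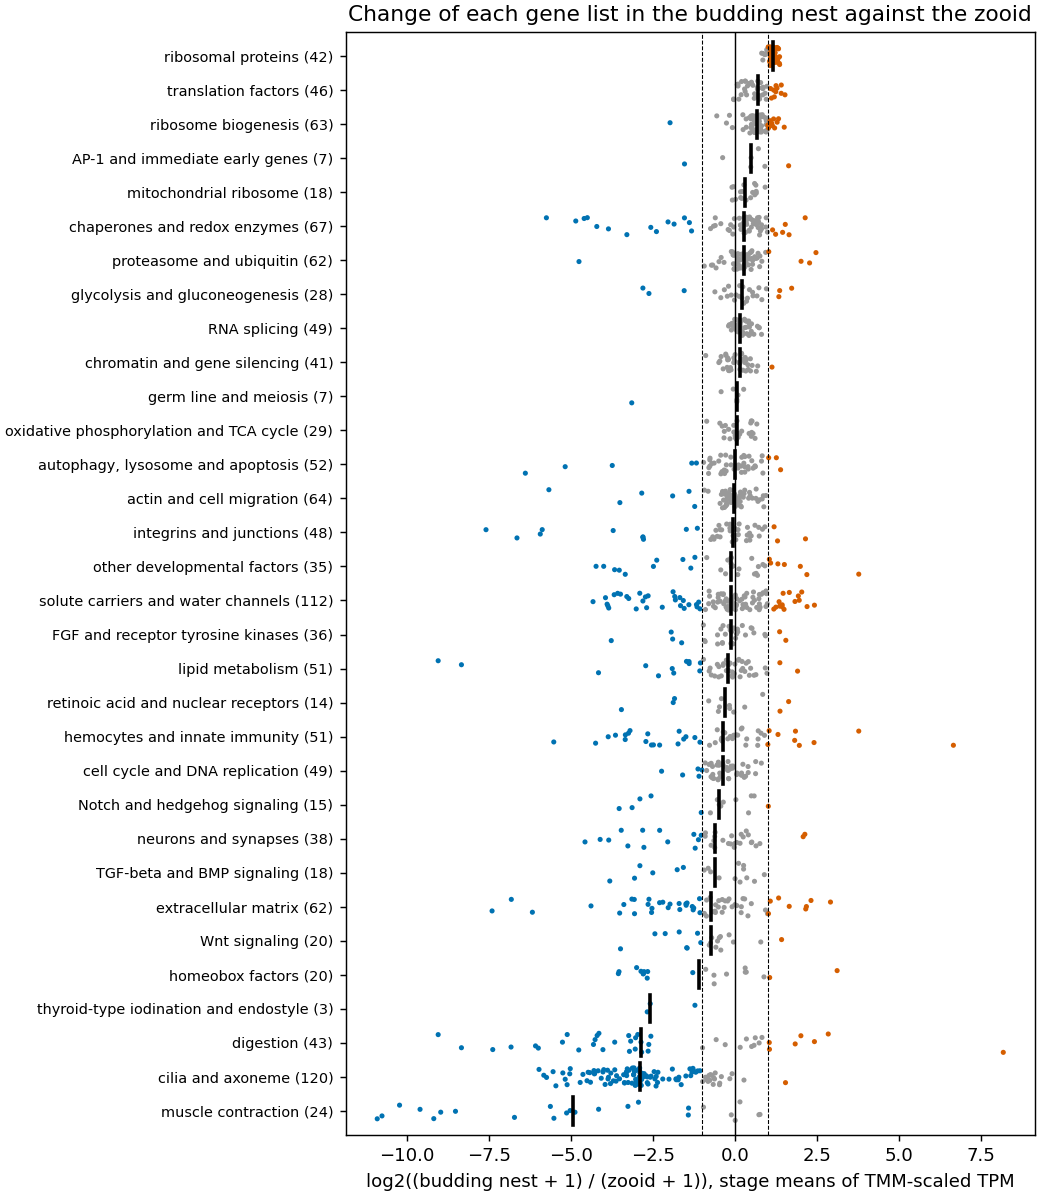
Each point is 1 counted transcript of a gene list, with its log2 change (budding nest over zooid, stage means + 1) on the horizontal axis. Lists run from the lowest median (bottom) to the highest, black bars are medians, numbers in parentheses count transcripts, and orange and blue mark changes past 2-fold (dashed lines). The median of muscle contraction is -4.95, that of cilia and axoneme -2.90 and that of ribosomal proteins 1.16. Scaling to equal sums would shift points by up to -0.43.

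Extracellular matrix genes included members with large changes in both directions. Basement membranes are built from laminins, type IV collagen, nidogen and perlecan, while fibrillar collagens give tensile strength. Of 62 matrix transcripts, 27 were lower in the nest and 8 higher (4 with equal sums), with a median of -0.72. The fibrillar collagen CO5A2 had 3.42 in the nest and 745 in the zooid (-7.40), and CO5A1 had 2.82 in the nest and 428 in the zooid (-6.81). COCA1, a collagen on the surface of fibrils, had 0.138 in the nest and 81.0 in the zooid (-6.17), and the secreted SPON1 had 0.269 in the nest and 25.5 in the zooid (-4.38). Other laminin chains were lower while LAMB2 was higher, with 10.3 for LAMB1 in the nest against 30.8 in the zooid (-1.49) and 14.6 for LAMC1 in the nest against 37.3 in the zooid (-1.30).

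The higher matrix members were headed by LAMB2 and CO7A1, the collagen of anchoring fibrils below epidermis. CO7A1 had 23.0 in the nest and 3.82 in the zooid (2.32). SVEP1, a large cell adhesion protein, had 704 in the nest and 155 in the zooid (2.18) in its most abundant transcript, and 4 others of that name had changes of -3.51, 0.99, 1.33 and 1.66. MATN1, a matrilin that bridges matrix fibers, had 249 in the nest and 54.9 in the zooid (2.16). CO4A1, the type IV collagen chain, had 33.7 in the nest and 51.4 in the zooid (-0.59) and was within 2-fold.

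Junction genes differed by member. Claudins seal the space between epithelial cells, and different claudins mark different epithelia. Of 48 integrin and junction transcripts, 10 were lower in the nest and 3 higher, with a median of -0.07. CLD1 had 0.554 in the nest and 297 in the zooid (-7.58), CLD7 had 0.001 in the nest and 98.8 in the zooid (-6.64), and 1 transcript named CLD19 had 0.262 in the nest and 72.9 in the zooid (-5.87). CLD18 was higher, with 299 in the nest and 130 in the zooid (1.19), as was another CLD19 transcript with 19.2 in the nest and 7.19 in the zooid (1.30). DESP, the desmoplakin that anchors filaments at desmosomes, had 20.4 in the nest and 3.81 in the zooid (2.15). The integrin subunits named in the list all stayed within 2-fold, for example ITA11 with 50.8 in the nest and 37.0 in the zooid (0.45).

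The intermediate filament protein vimentin showed both patterns. Of the 3 counted transcripts named VIME, 2 were higher in the nest, with 1062 and 907 in the nest against 194 and 169 in the zooid (2.44 and 2.42). The other had 0.046 in the nest and 182 in the zooid (-7.45). Opposite changes past 2-fold were found for 16 of the 130 names that several counted transcripts carried.

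Hemocytes carry the innate immunity of ascidians and also include the undifferentiated cells linked with budding. The list of hemocyte and innate immunity genes was mixed, with 9 of 51 higher in the nest, 19 lower and a median of -0.35 (0.29 with a minimum of 20). Its values summed to 2412 in the nest, of which CD109 gave 1094, and to 1229 in the zooid. Complement members were among the higher ones. The central component CO3 had 151 in the nest and 37.9 in the zooid (1.96) in 1 transcript, and 23.0 in the nest and 22.4 in the zooid in another. The protease MASP2 of the lectin pathway had 96.2 in the nest and 17.3 in the zooid (2.41), and a second MASP2 transcript had 65.6 in the nest and 34.6 in the zooid (0.90).

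Lower immune members included secreted and mucosal proteins. VWF, a large adhesive glycoprotein, had 0.092 in the nest and 49.1 in the zooid (-5.52). FCGBP, a mucus protein of vertebrate gut, had 0.009 in the nest and 13.7 in the zooid (-3.86) in 1 transcript and 23.2 in the nest and 5.74 in the zooid (1.85) in another. LYG2, a lysozyme, had 0.361 in the nest and 15.9 in the zooid (-3.64). HPGDS, a prostaglandin synthase, was listed at 0 in the nest against 18.0 in the zooid in 1 transcript and had 195 in the nest and 96.7 in the zooid (1.00) in the other.

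Several transcription factors that the study names for dormancy or germination were higher in the nest. The nest against the zooid is a different comparison, and the study's calls for those stages were not examined here. NKX23, placed with NK4 in the study's gene trees and a homeobox factor of mesoderm, had 130 in the nest and 14.1 in the zooid (3.12). GRHL2, a grainyhead-like factor of epithelia, had 24.8 in the nest and 5.48 in the zooid (1.99). The retinoic acid receptor RARG had 102 in the nest and 38.7 in the zooid (1.37) in its main transcript, and 4.49 in the nest and 8.54 in the zooid (-0.80) in a second. DLX1, a distal-less factor, had 18.6 in the nest and 8.38 in the zooid (1.06). With equal sums for both stages the changes of DLX1 and of this main RARG transcript were 0.65 and 0.95, below 2-fold, and the second RARG transcript was past it at -1.14.

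Of the remaining factors of this kind, NR4A3, an orphan nuclear receptor, was higher with 11.6 in the nest and 3.06 in the zooid (1.64). HLF, a leucine zipper factor placed in the study's gene trees and added after its values were seen, had 89.7 in the nest and 41.6 in the zooid (1.09), or 0.66 with equal sums. A second transcript placed with HLF had 116 in the nest and 90.1 in the zooid (0.36). The others named here stayed within 2-fold. The AP-1 subunit JUN had 155 in the nest and 110 in the zooid (0.49), and the transcript placed with FOS in the study's gene trees had 37.5 in the nest and 18.8 in the zooid (0.96). HIF1A, the hypoxia-inducible factor, had 63.7 in the nest and 57.4 in the zooid (0.15). FOXH1, a partner of Smad proteins, had 18.7 in the nest and 12.0 in the zooid (0.60), and the STAT factor STA5A had 16.0 in the nest and 9.40 in the zooid (0.71). The change of STA5B, also a STAT factor, was 0.20. The chromatin proteins MS3L1 and MBD2 had changes of 0.65 and 0.31. With equal sums the changes of HIF1A and MBD2 turned to -0.28 and -0.11, and those of STA5B and the second HLF transcript to -0.20 and -0.07.

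Homeobox factors as a list were lower. Of 20 counted, 10 were lower in the nest and 2 (NKX23 and DLX1) higher, with a median of -1.09, and 4 of the lower ones were listed at 0 in the nest. PAX9, a factor of the pharynx in vertebrates, was listed at 0 in the nest against 10.7 in the zooid, and PAX5 at 0 in the nest against 10.6 in the zooid. NKX21, a factor of thyroid and endostyle, was listed at 0 in the nest against 5.37 in the zooid. ISL1, of heart and neurons, had 0.009 in the nest and 6.33 in the zooid (-2.86). These zooid levels are low, and among homeobox transcripts with a higher mean of at least 20 the median was 0.32.

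Other developmental factors were split, with 7 of 35 higher (4 with equal sums), 10 lower and a median of -0.10, which was 1.00 with a minimum of 20. Among the higher were RUNX1, GRHL2, SP9, a zinc finger factor of limb buds in vertebrates, and TFAP4, a helix-loop-helix factor. SP9 had 91.2 in the nest and 19.2 in the zooid (2.19), and TFAP4 had 28.8 in the nest and 9.48 in the zooid (1.51). Lower were forkhead factors of endoderm and epithelia. FOXA2 was listed at 0 in the nest against 10.5 in the zooid, FOXI2 had 0.006 in the nest and 15.1 in the zooid (-4.00), and FOXQ1 had 1.85 in the nest and 35.2 in the zooid (-3.67). COE3, a factor of neurons and muscle, was listed at 0 in the nest against 17.8 in the zooid.

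Signaling genes were lower in part, secreted antagonists included. Of 20 Wnt transcripts, 8 were lower and 1 higher, with a median of -0.73. The Wnt-binding antagonists SFRP3 and SFRP2 had 0.271 and 0.122 in the nest against 13.2 and 5.08 in the zooid (-3.49 and -2.44), and the receptor FZD3 had 1.46 in the nest and 6.98 in the zooid (-1.70). KREM1, a co-receptor of Dickkopf antagonists, was higher with 50.7 in the nest and 18.3 in the zooid (1.42). Of 18 TGF-beta and BMP transcripts, 6 were lower and 0 higher, with a median of -0.61 (0.26 with a minimum of 20). The BMP antagonist NOGG was listed at 0 in the nest against 7.33 in the zooid, and TWSG1, another BMP-binding protein, had 0.386 in the nest and 18.5 in the zooid (-3.81).

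Receptor tyrosine kinase signaling was closer to the zooid, with 2 of 36 transcripts higher, 4 lower (7 with equal sums) and a median of -0.11. The orphan receptor ROS1 had 8.79 in the nest and 2.34 in the zooid (1.55), and the insulin receptor INSR had 9.84 in the nest and 3.21 in the zooid (1.36). The vascular ligand ANGP1 had 0.119 in the nest and 14.2 in the zooid (-3.77). Of 15 Notch and hedgehog transcripts, 5 were lower and 1 higher, with a median of -0.48 (0.50 with a minimum of 20). The ligand DLL1 had 0.018 in the nest and 6.56 in the zooid (-2.89), the Notch modifier LFNG had 0.040 in the nest and 11.0 in the zooid (-3.53), and the hedgehog transducer SMO had 15.8 in the nest and 7.27 in the zooid (1.02). Of 14 transcripts of retinoic acid metabolism and nuclear receptors, 2 were higher and 3 lower. The enzyme RDH10, which makes retinal from retinol, had 7.81 in the nest and 30.5 in the zooid (-1.84).

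Proliferation genes were not higher in the nest. Of 49 cell cycle and DNA replication transcripts, 0 were higher and 5 lower, with a median of -0.36. With equal sums 16 were lower and the median was -0.73. The replicative helicase subunit MCM7 had 8.43 in the nest and 19.6 in the zooid (-1.12), and PRC1, which bundles microtubules for cytokinesis, had 3.91 in the nest and 9.48 in the zooid (-1.09). The replication clamp PCNA had 41.9 in the nest and 59.8 in the zooid (-0.50). Of 7 germ line and meiosis transcripts, 1 was lower, the sperm protein SPT17 with 0.049 in the nest and 8.26 in the zooid (-3.14).

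Ribosomal proteins formed the most uniform list. Of 42 counted, 35 were higher in the nest and 0 lower, with a median of 1.16 and a range of 0.82 to 1.36. Their values summed to 151863 in the nest and 68587 in the zooid. RL35 had 5848 in the nest and 2272 in the zooid (1.36), RS24 had 4673 in the nest and 1819 in the zooid (1.36), and RS27, the most abundant named ribosomal protein of both tissues, had 9434 in the nest and 5229 in the zooid (0.85). With equal sums for both stages their median was 0.73, 0 were past 2-fold and 42 of 42 stayed above 0.

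The rest of the translation machinery moved by less. Translation factors had 10 of 46 higher, 0 lower and a median of 0.69, with the elongation factor subunit EF1G at 990 in the nest and 343 in the zooid (1.53). Ribosome biogenesis had 10 of 63 higher, 1 lower and a median of 0.68. BRX1, an assembly factor of the large subunit, had 71.8 in the nest and 24.7 in the zooid (1.50). The 1 lower member, SPB4, had 1.50 in the nest and 8.81 in the zooid (-1.98). Its human entry name is that of a serpin, a protease inhibitor, so it is not a gene of ribosome assembly. With equal sums these medians were 0.29 and 0.33, and 1 translation factor and 1 transcript of ribosome biogenesis were past 2-fold higher. The mitochondrial ribosome had 0 of 18 past 2-fold and a median of 0.31, which turned to -0.13 with equal sums.

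Other housekeeping lists lay near the median of named transcripts. None of 29 transcripts of oxidative phosphorylation and the TCA cycle and none of 49 of RNA splicing passed 2-fold, with medians of 0.05 and 0.17. The proteasome and ubiquitin list had 4 of 62 higher and 1 lower (3 and 4 with equal sums), with a median of 0.26. Its 1 lower member as deposited was FBXW7, with 2.05 in the nest and 81.0 in the zooid (-4.75). Chromatin and gene silencing had 1 of 41 higher, the mitochondrial deacylase SIR4, and a median of 0.15. Chaperones and redox enzymes had 6 of 67 higher, 14 lower and a median of 0.28, and glycolysis and gluconeogenesis had 3 of 28 higher, 3 lower and a median of 0.23. The sign of each of these 6 medians turned with equal sums.

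In the glycolysis list the higher members handle glycogen and hexoses. GLYG (glycogenin), the primer of glycogen synthesis, had 27.8 in the nest and 7.67 in the zooid (1.73), and the hexokinase HXK2 had 117 in the nest and 45.5 in the zooid (1.34). The sugar transporter GTR5 had 63.7 in the nest and 24.1 in the zooid (1.37) in 1 transcript and 0.007 in the nest and 6.03 in the zooid (-2.80) in another. Among chaperones and redox enzymes, the small heat shock protein HSPB1 had 0.073 in the nest and 56.5 in the zooid (-5.74), and the glutaredoxin GLRX2 had 18.2 in the nest and 3.36 in the zooid (2.14).

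Lipid, lysosome and transport lists contained members of both kinds. Lipid metabolism had 2 of 51 higher, 12 lower and a median of -0.21, with the desaturase SCD5 listed at 0 in the nest against 16.8 in the zooid and the endocytic receptor LRP2 at 13.7 in the nest and 2.92 in the zooid (1.91). Of 52 transcripts of autophagy, lysosome and apoptosis, 3 were higher and 5 lower (0 and 13 with equal sums), with a median of -0.01. The protease CATL1 had 0.098 in the nest and 90.8 in the zooid (-6.38), and the lysosomal lipase LICH had 21.1 in the nest and 7.43 in the zooid (1.39). Of 112 solute carriers and water channels, 15 were higher and 29 lower, with a median of -0.11. The water channel AQP8 had 50.2 in the nest and 12.2 in the zooid (1.96), and the ammonium channel RHAG had 0.829 in the nest and 26.2 in the zooid (-3.89).

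Most lower transcripts had their highest mean in the zooid, while most higher ones had it outside the nest. Means of stolons, dormant and germinating spherules are given beside the same zooid mean, which they share. Over all transcripts counted, 32.7% had their highest mean in the zooid, 13.3% in the nest and 18.8% in the stolon. The dormant spherule had 20.9% and the germinating spherule 14.3%. Of the 3833 lower transcripts, 3508 (91.5%) had their highest mean of the 5 stages in the zooid, a share that the selection favours. Their medians were 1.01 in the nest, 1.20 in the stolon, 1.19 in the dormant spherule, 1.89 in the germinating spherule and 11.2 in the zooid. Of the 2591 higher transcripts, 953 had their highest mean in the nest and 740 in the stolon. A further 705 had it in the dormant spherule and 193 in the germinating spherule. The selection favours the nest and excludes the zooid for these higher transcripts. Their medians were 21.3 in the nest, 17.8 in the stolon, 13.7 in the dormant spherule, 12.8 in the germinating spherule and 5.06 in the zooid.

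**Figure D3:**
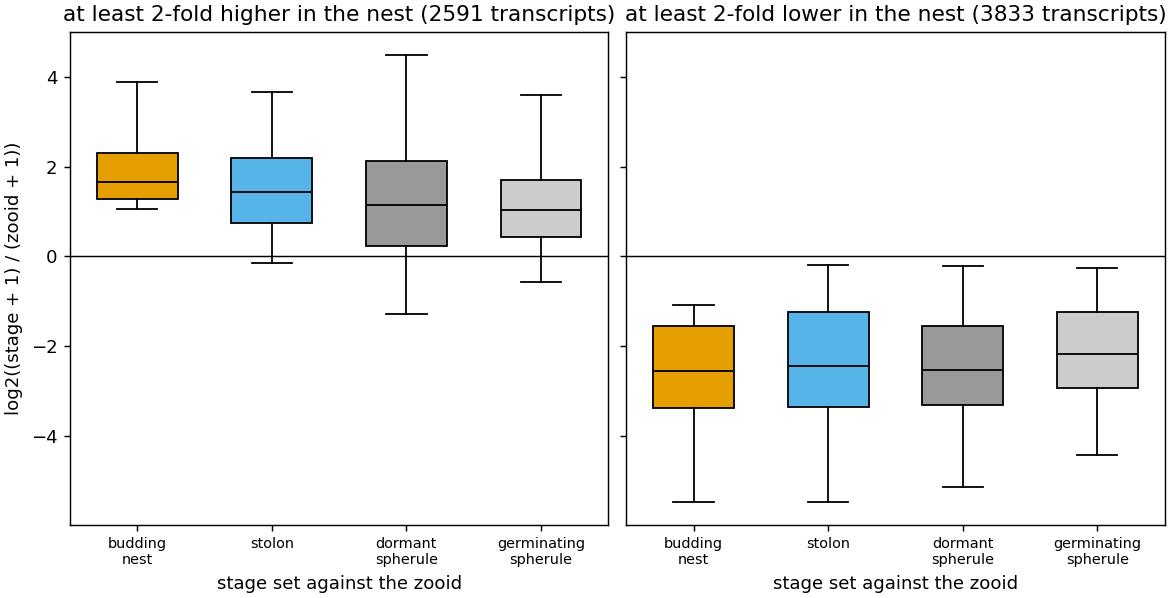
Boxes show log2((stage + 1)/(zooid + 1)) for the transcripts at least 2-fold higher (left, 2591) and lower (right, 3833) in the budding nest, with the median, the quartiles and whiskers at the 5th and 95th percentiles over transcripts. The nest box is set by the selection, and the other stages share its zooid mean. Medians of the higher set are 1.42 in the stolon, 1.14 in the dormant and 1.03 in the germinating spherule, and those of the lower set are -2.44, -2.53 and -2.17.

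The named transcripts divided by the stage in which they peaked. Of the 15 with the largest rise, 8 had their highest mean in the nest and 5 in the dormant spherule. The stolon and the germinating spherule had 1 each. Ranking by nest over zooid favours the nest and excludes the zooid, and 36.8% of all 2591 higher transcripts peaked in the nest. AMYP had 6387 in the nest, 1001 in the stolon, 8982 in the dormant spherule, 3696 in the germinating spherule and 21.1 in the zooid. HEBP2 differed from it, with 1399 in the nest, 2803 in the stolon, 4.29 in the dormant spherule, 257 in the germinating spherule and 148 in the zooid. NKX23 was level outside the zooid, with 130 in the nest, 126 in the stolon, 119 in the dormant spherule, 123 in the germinating spherule and 14.1 in the zooid.

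Muscle transcripts separated the nest from the spherules. CNN1 had 0.434 in the nest and 0.177 in the stolon, but 258 in the dormant spherule, 198 in the germinating spherule and 2474 in the zooid. TNNC2 had 0.378 in the nest, 0.386 in the stolon, 286 in the dormant spherule, 174 in the germinating spherule and 1640 in the zooid. The median over the muscle list against the zooid was -4.95 in the nest, -5.07 in the stolon, -2.71 in the dormant spherule and -3.09 in the germinating spherule. For cilia the medians lay closer together, at -2.90, -2.92, -2.59 and -2.46 in the same order of stages.

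**Figure D4:**
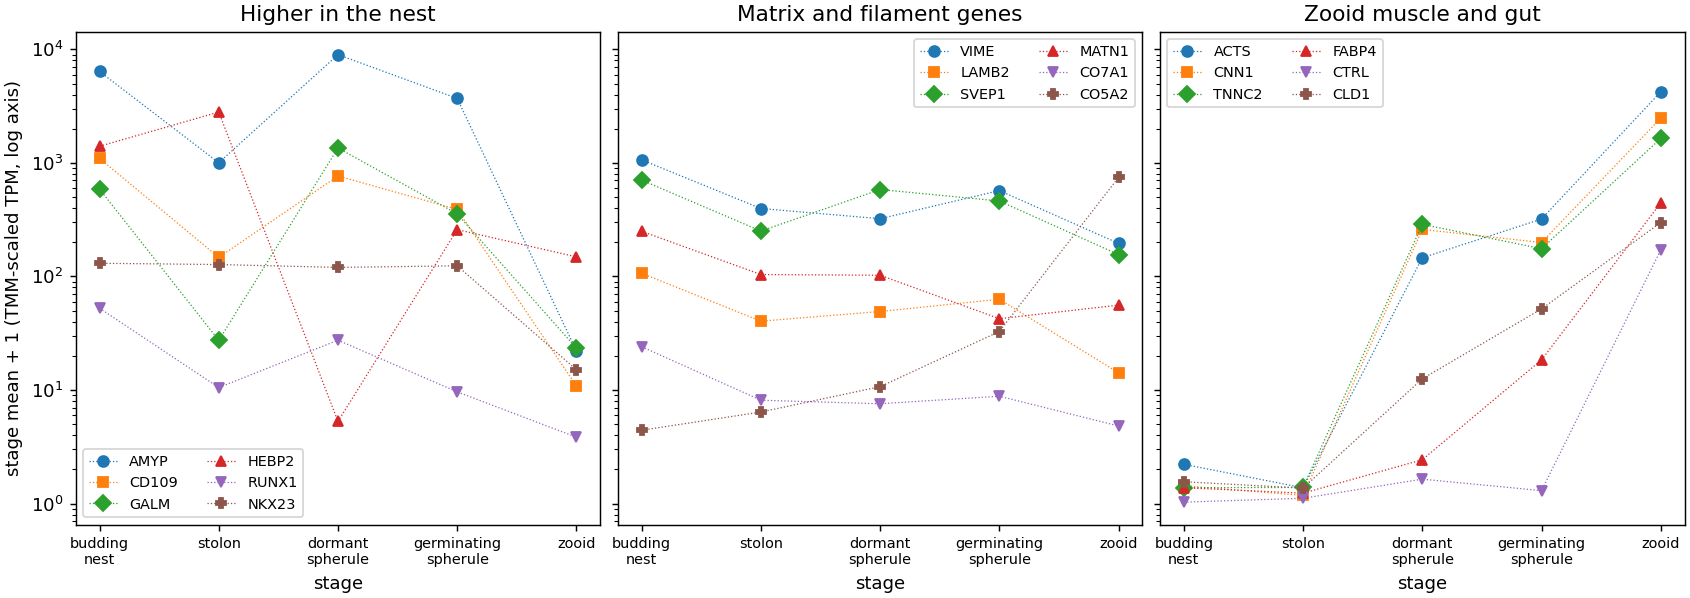
Stage means + 1 (TMM-scaled TPM, log axis) of named transcripts in the budding nest, stolon, dormant spherule, germinating spherule and zooid, 1 marker per mean, with dotted lines only to join markers of 1 transcript. AMYP lies at 6387 in the nest and 21.1 in the zooid and HEBP2 drops to 4.29 in the dormant spherule (left). CO5A2 is the matrix gene that runs opposite to LAMB2 and SVEP1 (middle), and CNN1 and TNNC2 are near 0 in nest and stolon alone (right).

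Few transcripts set the nest apart from every other stage. In 196 of the 17585 transcripts counted, the nest mean was at least 2-fold above that of each of the other 4 stages. Of these 196, 9 had a human name, beside 16.2% of all transcripts counted. They were LIPR1, KLH13, CO7A1, UMPS, MATN1, S38A4, LRP2, GLYG and CGL, named after their values were seen where no other rule chose them. LIPR1 had 82.9 in the nest, 12.5 in the stolon, 14.6 in the dormant spherule, 10.3 in the germinating spherule and 10.7 in the zooid. UMPS, which catalyses the last steps of uridine monophosphate synthesis, had 93.3 in the nest and 18.2 in the zooid (2.29). The amino acid transporter S38A4 had 113 in the nest and 28.8 in the zooid (1.93), with a second S38A4 transcript at 3.95 in the nest and 54.4 in the zooid. CGL, which makes cysteine from cystathionine, had 157 in the nest and 60.4 in the zooid (1.37).

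Transcripts assembled as isoforms of the same gene seldom changed in opposite directions. Of 14332 assembled genes, 2528 had several counted transcripts, and in 47 of these (1.86%) transcripts passed 2-fold both ways. Some such groups held proteins with unrelated names, so the grouping by the assembler does not always stand for 1 gene. TNNC2 shared its group with a transcript named MALR1, and the intraflagellar transport protein IFT57, with 4.86 in the nest and 13.2 in the zooid, shared one with NEUFC (neuferricin), with 21.7 in the nest and 7.84 in the zooid. These pairs were chosen after their values were seen.

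The budding chamber of *C. lepadiformis*, the stage matched to the budding nest by the study, was set against its own zooid for the same ortholog pairs. Of 4422 pairs, 3427 had a higher mean of at least 5 in both species. In *C. lepadiformis* 9.66% of these were higher and 23.1% lower in the chamber, and in *P. zorritensis* 9.89% were higher and 23.1% lower in the nest. Of the 339 pairs higher in the nest, 141 (41.6%) were higher in the chamber and 27 (7.96%) lower. Of the 792 pairs lower in the nest, 576 (72.7%) were lower in the chamber and 42 (5.30%) higher. The changes correlated across pairs with a Spearman coefficient of 0.57 and a Pearson coefficient of 0.69 (n = 3427), with no shared library, but all pairs had been selected on calls in both species.

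Among pairs higher in both, the largest changes by the smaller of both species were led by CD109, CP2C9 and NKX23. CD109 had 298 in the chamber and 18.6 in the zooid of *C. lepadiformis* (3.93), CP2C9 had 42.5 in the chamber and 3.70 in the zooid (3.21), and NKX23 had 22.9 in the chamber and 2.24 in the zooid (2.88). KLH13, VIME, CO7A1, SP9, SVEP1 and DESP were also among them, and SP9 had the largest change of these in *C. lepadiformis*, with 162 in the chamber and 6.45 in the zooid (4.45). Of the factors named above, GRHL2 (1.90), DLX1 (2.57), NR4A3 (2.01) and RARG (1.90) also had positive changes in the chamber, the first with means of 8.84 in the chamber and 1.64 in the zooid.

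Pairs lower in both included gut genes. FABP4 had 2.43 in the chamber and 1471 in the zooid of *C. lepadiformis* (-8.75), and CTRL had 0.355 in the chamber and 1012 in the zooid (-9.55). CLD1, ANX13, CBPA2, ENDOU, CLD7, CATL1, CHIT1 and MGA were the others, of which ENDOU, an endoribonuclease, was listed at 0 in the nest against 112 in the zooid of *P. zorritensis*. CHIT1, a chitinase, had 0.095 in the nest and 90.6 in the zooid of *P. zorritensis* (-6.39), and 0.005 in the chamber and 102 in the zooid of *C. lepadiformis* (-6.68). By list, 98 of 115 cilia transcripts, 29 of 42 digestion transcripts and 14 of 22 muscle transcripts were lower in the chamber.

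Several of the largest changes in the nest were not shared. AMYP had 60.9 in the chamber and 174 in the zooid of *C. lepadiformis* (-1.50), and HEBP2 had 523 in the chamber and 1210 in the zooid (-1.21), both opposite to the nest. FABP6 had 81.8 in the chamber and 31.1 in the zooid (1.37), also opposite. GALM had 11.1 in the chamber and 14.3 in the zooid (-0.34). The collagens CO5A2 and CO5A1 had 423 and 588 in the chamber against 471 and 388 in the zooid (-0.15 and 0.60), within 2-fold. The median of ribosomal proteins was positive in the chamber as in the nest, at 0.84 beside -0.16 over all pairs counted. Of these, 1 of 41 was past 2-fold higher. The median of translation factors in the chamber was -0.04, with 0 of 44 past 2-fold higher.

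**Figure D5:**
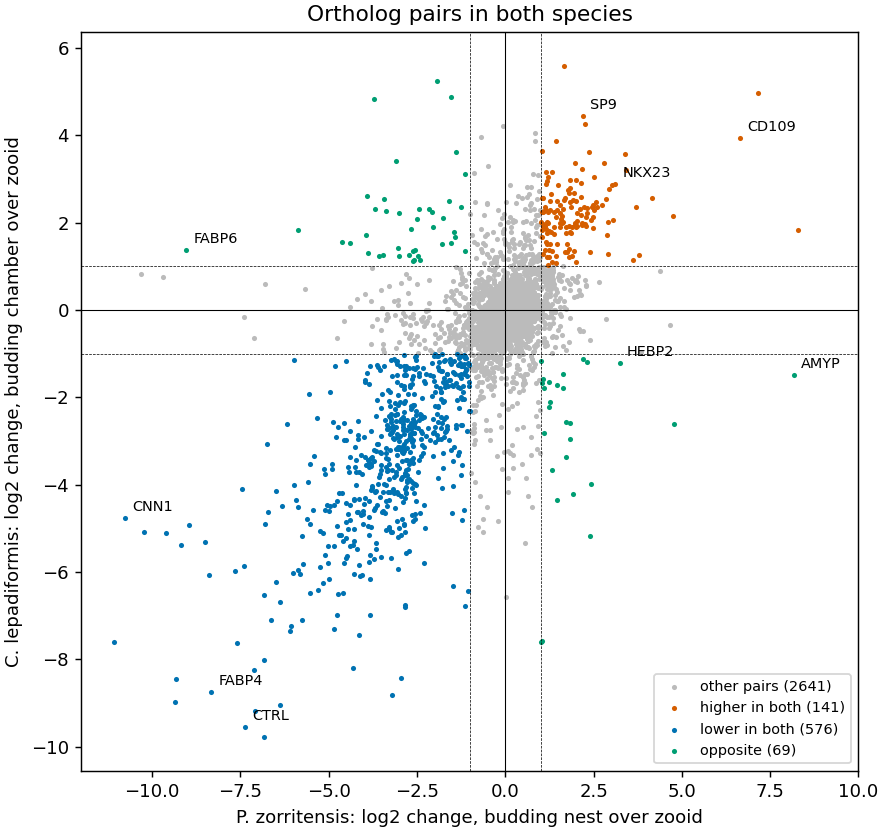
Each point is 1 of 3427 ortholog pairs, with the log2 change of the budding nest over the zooid of *P. zorritensis* on the horizontal axis and that of the budding chamber over the zooid of *C. lepadiformis* on the vertical axis (stage means + 1, dashed lines at 2-fold). Pairs past 2-fold in both species are coloured, 141 higher in both, 576 lower in both and 69 opposite. AMYP and FABP6 lie far out on the horizontal axis with the opposite sign on the vertical.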

How the data were processed

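RNA of *P. zorritensis* and *C. lepadiformis* had been sequenced by the authors as paired reads, assembled de novo with Trinity and quantified with Kallisto as TPM. The deposited signal values are these TPM after TMM scaling across the libraries of a species, averaged by the authors over the replicates of a stage, and values per replicate and read depth were not analysed here. The other deposited table lists ortholog pairs (reciprocal best hits), protein names and the authors' calls of stages as up or down. The names were used and the calls were not.

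Changes were computed in Python 3.11.15 with pandas 2.3.3 and numpy 2.4.6, with a pseudocount of 1, a minimum of 5 in the higher mean and a 2-fold threshold. The steps were tested on simulated data. Of 27938 transcripts, 4422 were in pairs and 3380 had a human name, of which 537 were under the minimum. The members and the 32 gene lists were chosen with earlier results of these data known, and lists overlap. Named genes are the 15 with the largest change each way, the 5 highest means of each tissue, up to 4 list members past 2-fold each way, factors the study names, and the 10 pairs most changed each way in both species. List members within 2-fold serve as examples. Some genes that the rule names are not reported here. Alternatives were other pseudocounts, filters, thresholds and scalings, and summed isoforms.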

Additional observations from a re-analysis of the deposited data

How the results depend on the processing

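No paired analysis was possible because only stage means were used, which carry no replicate number, and leaving out a replicate was not run for the same reason. At least 2-fold higher in the nest were 1343 transcripts with a minimum of 20, 924 at a 4-fold threshold and 1535 with equal sums for both stages, in place of 2591. At least 2-fold lower were 6010 with no minimum, 1095 with a minimum of 20 and 2362 at 4-fold, in place of 3833, so with a minimum of 20 most transcripts past the threshold (55.1%) were higher. The median over all transcripts stayed between -0.48 (equal sums) and 0.14 (minimum of 20). With a minimum of 20 the median of homeobox factors turned to 0.32, and those of neurons (0.25), hemocytes (0.29), TGF-beta (0.26), Notch (0.50) and other developmental factors (1.00) moved above 0 by over 1.5-fold. The cause was not tested, though fewer transcripts are counted there. Medians of cilia were -4.45, -1.43 and -4.35 with a pseudocount of 0.1, of 5 and a minimum of 20. Those of digestion were -5.72, -1.24 and -4.39, those of endostyle genes -4.68, -1.07 and -1.22, and those of muscle -7.16 and -2.94 with the 2 pseudocounts. With equal sums 8 of 32 list medians, all under 0.31 as deposited, turned below 0. With isoforms summed, MALR1 turned to -5.83, PRIC2 to 0.93 and CNTP2 to 0.68. Ortholog pairs changed the same way were 717, against 226 with a minimum of 20 and 431 at 4-fold. A rescaling to a median of 0 moved neither count by over 1.5-fold. With no reads per sample, differences of weakly expressed transcripts cannot be given a precision.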

Other observations

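Further transport genes had transcripts with changes in either direction. These values were chosen after they were seen. The carnitine and cation transporter name S22A5 was carried by 3 counted transcripts, of which 1 had 21.6 in the nest and 3.92 in the zooid (2.20 on the log2 scale of mean + 1), and also 110 in the stolon. The others had 0.304 and 0 in the nest against 15.7 and 6.46 in the zooid. The zinc transporter S39A3 had 26.1 in the nest and 5.59 in the zooid (2.04), and the glutamate transporter EAA3 was listed at 0 in the nest against 13.6 in the zooid. BAT1, a subunit of amino acid exchangers, had 33.0 and 28.9 in the nest against 11.3 and 10.3 in the zooid in 2 transcripts, and another was listed at 0 in the nest against 8.42 in the zooid.

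The ortholog pairs that moved in opposite directions in the species included membrane and secreted proteins. Of the 39 transcripts of such pairs with a human name, NTCP2 had 13.6 in the nest and 1.72 in the zooid of *P. zorritensis*, and 0.01 in the chamber and 15.1 in the zooid of *C. lepadiformis*. RHAG had 0.829 in the nest and 26.2 in the zooid of *P. zorritensis*, and 140 in the chamber and 56.1 in the zooid of *C. lepadiformis*. TAGL3, a transgelin that binds actin, had 16.8 in the nest and 46.2 in the zooid of *P. zorritensis*, and 974 in the chamber and 303 in the zooid of *C. lepadiformis*. A transcript named HPGDS had 195 in the nest and 96.7 in the zooid of *P. zorritensis*, and its pair was listed at 0 in the chamber against 192 in the zooid of *C. lepadiformis*.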
